A study of Homo sapiens with 5 samples.

Results

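The plasminogen activation system was examined through 6 of its genes: the plasminogen activators PLAU and PLAT, the receptors PLAUR and PLGRKT, and the inhibitors SERPINE2 and SERPINB2. They were taken by name, as all transcripts that GENCODE v44 assigns to them, which gave 53 transcripts of 6 genes, out of 61220 genes with a listed transcript in the series. All 6 genes had at least 1 read, and 5 passed the read filter of at least 10 reads in at least 2 libraries. SERPINE2 passed it through the libraries rich in HCC827, where it was high, and SERPINB2 did not pass it. PLAT had 7 reads in pure HCC827 RNA and passed it only through libraries that held NCI-H1975 RNA, where it was high. The genes were chosen with their levels already known, so their levels, slopes and calls from the fit over all genes are given as a description, with no p-value.

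Reads came from 5 libraries of poly(A) RNA from NCI-H1975 and HCC827, established human cell lines from lung adenocarcinoma, sequenced as PCR-amplified cDNA on a nanopore flow cell. The lines were grown separately in RPMI medium with fetal calf serum until nearly confluent, and the labels name no drug or genetic change for either. NCI-H1975 RNA was labelled as carrying synthetic spike-in transcripts (sequins) of mix A and HCC827 RNA as carrying mix B. Libraries are named by the mass ratio of NCI-H1975 to HCC827 RNA, and the pure libraries are thus 100:0 (NCI-H1975) and 0:100 (HCC827), with 75:25, 50:50 and 25:75 as the mixed ones. Each ratio had 1 library, and the labels name 1 RNA preparation of each line, so no value covers the spread between cultures.

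Plasminogen is a circulating proenzyme that urokinase (encoded by PLAU) and tissue plasminogen activator (PLAT) cut to plasmin, a protease of fibrin and extracellular matrix. The urokinase receptor (PLAUR), held in the membrane by a glycolipid anchor, gathers urokinase at the cell surface, and PLGRKT is a membrane protein that binds plasminogen through a lysine at its end. SERPINE2 (protease nexin-1) blocks thrombin, urokinase and plasmin, and SERPINB2 (plasminogen activator inhibitor type 2) blocks both activators. In lung cancer the urokinase arm is best known for its part in invasion through matrix.

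Libraries held from 2932250 to 4058751 assigned reads. In the order of the series, the libraries that held NCI-H1975 RNA had 5475, 4678, 2830 and 1269 sequin reads, fewer at each step. The library labelled 0:100 had 0 although its label names mix B, and what HCC827 RNA added to the mixed libraries was not tested. Without that library the slopes of the members, in log2 units from 100:0 to 0:100, were 4.69 for SERPINE2, 0.90 for PLGRKT, 0.59 for PLAUR, 0.21 for PLAU and -1.59 for PLAT, and the slopes with it are given below. All 8 markers of lung adenocarcinoma epithelium had at least 10 reads, and their summed level ran from 5618 to 16160 CPM (counts per 1000000 reads, scaled as described below). Of 5 leukocyte markers, PTPRC, CD3E and LYZ had 0 reads, and the list summed to at most 4.40 CPM. Endothelial markers summed to at most 1.40. Fibroblast markers summed to 186 in the 100:0 library and 7.07 in the 0:100 library, carried by the collagens COL1A1 and COL1A2, while DCN had 0 reads. Mesenchymal markers, mostly VIM, went from 1137 to 48.7. The choice of scaling moved all levels: the median log2 ratio of all tested genes between the pure libraries was -0.027 after scaling by the trimmed mean of M-values (TMM) and -0.44 by library totals. TMM sets a factor for each library so that the bulk of genes stays level, and levels below are TMM-scaled CPM unless library totals are named.

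PLAU was the member with most reads, and its level was nearly the same in both pure libraries. In the order of the series it had 1400, 1763, 1652, 1320 and 1066 reads, or 412, 408, 424, 461 and 396 CPM. The 4 libraries other than 25:75 lay within 396 to 424 CPM and the 25:75 library stood above them. The log2 ratio of the 0:100 to the 100:0 library was -0.057 (95% counting interval -0.17 to 0.059), and the fitted slope along the series was 0.030 ± 0.13 (SE) on the log2 scale. Scaled by library totals the same counts gave 477 CPM in the 100:0 library and 345 in the 0:100 library, a log2 ratio of -0.47. That is close to the median of all genes on that scale, so PLAU kept its place among the genes while its share of all reads was lower in the HCC827 library. PLAU (ENSG00000122861.16) lies on chromosome 10, 73909177 to 73917496, plus strand, in GRCh38. C10orf55, a noncoding gene on the opposite strand there, had 10 reads in all.

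PLAU reads were assigned mostly to a pair of coding transcripts that start translation at different positions. Their coding starts are shown because they differ between the forms that hold nearly all reads of the gene. PLAU-201, with 431 codons, is the main annotated form. Its coding start encodes the signal peptide for secretion. In PLAU-202, with 414 codons, the exon that holds this start runs on past its end in PLAU-201, and translation is annotated to begin in that extension. PLAU-202 also holds, as noncoding sequence, the coding bases of PLAU-201 that lie in the exon it extends. Capitals mark bases that are coding in only 1 of the pair and lower case the first 24 that are coding in both (chromosome 10, plus strand, capitals within 73911556 to 73912068 for PLAU-201 and at 73911892 to 73911925 for PLAU-202).
PLAU-201: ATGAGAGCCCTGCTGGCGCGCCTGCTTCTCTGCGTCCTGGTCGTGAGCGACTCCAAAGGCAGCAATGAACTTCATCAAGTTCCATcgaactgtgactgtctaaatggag
PLAU-202: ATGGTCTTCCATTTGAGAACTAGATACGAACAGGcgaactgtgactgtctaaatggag

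PLAU-202 held 66.0% of PLAU reads in the 100:0 library (95% Wilson interval 63.5 to 68.4), then 66.3%, 66.3% and 64.7%, and 67.2% (64.3 to 69.9) in the 0:100 library. PLAU-201 held nearly all the rest, from 32.7% to 35.2%. All 5 intervals of PLAU-202 overlapped, so no difference in the split between the lines was detectable at this depth. The nearest coding difference lies 2140 bases from the 3′ end of PLAU-201, and a read that stops short of it carries no base of it. Read lengths were not analysed here, so how many reads reached that point is unknown. PLAU-204 had 10 reads in all and PLAU-203 had 2.

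PLAT, the other activator, was higher in NCI-H1975. It had 52, 41, 30, 20 and 7 reads along the series, or 15.3, 9.50, 7.70, 6.99 and 2.60 CPM. Every step of the series was lower than the one before it, although the intervals of neighbouring libraries overlapped: those of the pure libraries were 11.4 to 20.1 and 1.05 to 5.36 CPM and did not. The NCI-H1975 library was 5.89-fold higher than the HCC827 library (95% counting interval 2.66 to 15.4), and the slope was -1.99 ± 0.42 (SE). By library totals the log2 ratio was -2.97, against -2.56 under TMM. In bulk RNA, fewer cells with the transcript and less of it in each cell cannot be told apart. PLAT (ENSG00000104368.19, chromosome 8, 42174718 to 42207709, minus strand) overlapped no other annotated gene.

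PLAT reads fell mainly on PLAT-201, with 74 reads in all, and PLAT-203, with 63. Both hold the same coding sequence of 1686 bases and differ in noncoding parts. PLAT-201 held 51.9% (38.7 to 64.9) of PLAT reads in the 100:0 library and 3 of 7 reads in the 0:100 library, so no change in the split could be seen. PLAT-202, with 12 coding exons in place of 13, had 8 reads in all.

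The urokinase receptor gene PLAUR was modestly higher in HCC827 after TMM scaling. It had 166, 218, 271, 175 and 182 reads, or 48.9, 50.5, 69.5, 61.2 and 67.7 CPM. The first pair of libraries lay near 50 CPM and the other 3 above 60, with the highest value in the middle of the series, so the levels did not run in order. HCC827 was 1.38-fold higher (95% counting interval 1.12 to 1.72), with a slope of 0.49 ± 0.18 (SE). By library totals the log2 ratio was 0.056 in place of 0.47, so the difference exists relative to other genes and not as a share of all reads. PLAUR (ENSG00000011422.12) lies on chromosome 19, 43646095 to 43670547, minus strand. RN7SL368P, annotated within it, had 0 reads.

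PLAUR had 5 coding transcripts with at least 10 reads, more than any other member. PLAUR-203 is the main form, with 335 codons, and its last exon encodes the signal for the glycolipid anchor. PLAUR-202, with 281 codons, swaps that exon for another and encodes a form without the anchor signal. PLAUR-201 and PLAUR-214 keep the anchor exon and each leave out an inner exon. The coding ends of PLAUR-203 and PLAUR-202 are shown because they separate an anchored from a secreted receptor. Capitals mark the last exon up to the stop codon, which is not included, and lower case the last 24 bases of the exon before it, which both share (chromosome 19, minus strand, capitals at 43648893 to 43649143 for PLAUR-203 and 43646460 to 43646548 for PLAUR-202).
PLAUR-203: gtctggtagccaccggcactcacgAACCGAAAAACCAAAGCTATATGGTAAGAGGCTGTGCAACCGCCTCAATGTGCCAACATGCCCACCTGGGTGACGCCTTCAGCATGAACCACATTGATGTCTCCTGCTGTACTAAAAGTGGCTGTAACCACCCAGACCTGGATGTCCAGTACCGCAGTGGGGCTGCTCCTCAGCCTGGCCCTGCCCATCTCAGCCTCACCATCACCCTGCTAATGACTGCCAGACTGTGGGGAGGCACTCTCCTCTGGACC
PLAUR-202: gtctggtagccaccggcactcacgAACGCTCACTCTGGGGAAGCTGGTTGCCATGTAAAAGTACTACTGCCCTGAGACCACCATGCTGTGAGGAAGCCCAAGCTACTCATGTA

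The inner exons left out of the other pair are shown because each is the whole coding difference from PLAUR-203. Both have a length that is a multiple of 3, at 135 bases (chromosome 19, 43655439 to 43655573) and 147 bases (43652225 to 43652371), so the reading frame is kept without them.
exon left out of PLAUR-201: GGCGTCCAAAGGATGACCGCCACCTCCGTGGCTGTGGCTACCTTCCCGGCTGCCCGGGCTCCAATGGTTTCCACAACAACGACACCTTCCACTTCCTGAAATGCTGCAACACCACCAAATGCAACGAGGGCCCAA
exon left out of PLAUR-214: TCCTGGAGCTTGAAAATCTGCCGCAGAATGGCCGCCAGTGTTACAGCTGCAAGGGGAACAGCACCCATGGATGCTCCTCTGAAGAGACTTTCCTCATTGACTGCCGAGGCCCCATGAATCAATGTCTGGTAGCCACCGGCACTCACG

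Over the 5 libraries PLAUR-203 had 228 reads, PLAUR-202 had 224, PLAUR-214 had 187 and PLAUR-201 had 122. PLAUR-205, a shorter model of 715 bases whose start is annotated as not found, had 239. Among reads on the 4 full-length coding forms, PLAUR-202 took 33.0% (95% Wilson interval 25.1 to 42.1) in the 100:0 library, then 30.0%, 25.9% and 26.1%, and 34.3% (27.0 to 42.4) in the 0:100 library. The pure libraries were alike and the mixed libraries lower, with all intervals overlapping. Among these 4 forms the balance of anchored and secreted ones thus did not differ detectably. PLAUR-205 was left out of that balance, although its 3′ end, at 43648576, lies beside that of PLAUR-203, at 43648579. It took 28.9% (22.6 to 36.2) of all PLAUR reads in the 100:0 library and 20.9% (15.6 to 27.4) in the 0:100 library. Of all PLAUR reads PLAUR-202 held 22.9% and 26.9% there, with overlapping intervals. PLAUR-201 went from 7.83% of all PLAUR reads (4.63 to 12.9) in the 100:0 library through 9.17%, 13.7% and 15.4% to 13.7% (9.48 to 19.5) in the 0:100 library. Its share was lower in the pair of libraries richest in NCI-H1975, but those intervals too overlapped with the others.

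**Figure D1:**
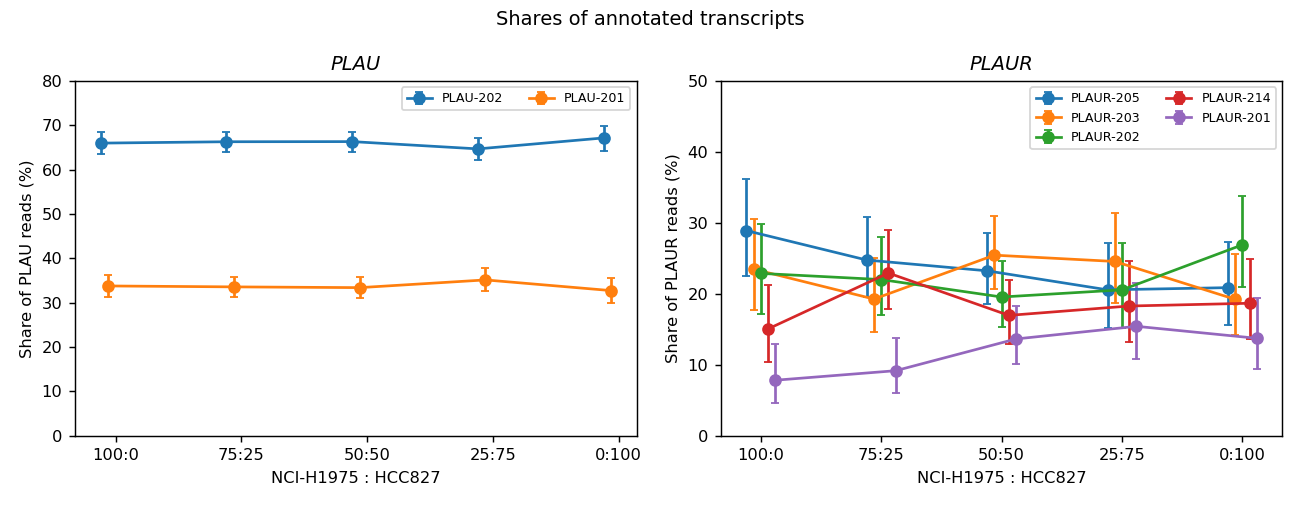
Share of PLAU reads (left) and PLAUR reads (right) on each transcript with more than 1% of the gene's reads, in percent, for the 5 libraries in mixture order. Bars are 95% Wilson intervals, which cover counting error only. PLAU-202 stays between 64.7% and 67.2%, and PLAUR reads are spread over 5 transcripts, each with intervals that overlap between libraries.

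PLGRKT, the plasminogen receptor, was higher in HCC827 and ran in order. It had 65, 97, 104, 87 and 88 reads, or 19.1, 22.5, 26.7, 30.4 and 32.7 CPM. The intervals of neighbouring libraries overlapped, while those of the pure libraries, at 14.8 to 24.4 and 26.2 to 40.3 CPM, did not. HCC827 was 1.71-fold higher (95% counting interval 1.23 to 2.39), with a slope of 0.79 ± 0.21 (SE). By library totals the log2 ratio was 0.36, in the same direction. Of its 441 reads, 439 fell on PLGRKT-201, the main form with 147 codons. PLGRKT (ENSG00000107020.10) lies on chromosome 9, 5357971 to 5437925, minus strand, and holds the pseudogene RNF152P1, which had 0 reads.

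SERPINE2 was found only in libraries that held HCC827 RNA. It had 0, 7, 11, 15 and 18 reads, or 0, 1.62, 2.82, 5.24 and 6.69 CPM. With the 0 of the 100:0 library set to a floor of 3 reads, or 0.884 CPM, the 18 reads of HCC827 were 7.57-fold higher. That value is set by the floor and is no bound. The exact 95% counting interval of the ratio of 18 to 0 reads, computed without the floor, had a lower limit of 5.55-fold. The slope of 3.53 ± 0.82 (SE) is no bound, since it depends on how a count of 0 is treated. Even in the 0:100 library the gene stayed at a low level, with a counting interval of 3.97 to 10.6 CPM. SERPINE2 (ENSG00000135919.14) lies on chromosome 2, 223975045 to 224039318, minus strand, and overlapped no other annotated gene.

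The 51 SERPINE2 reads were split over SERPINE2-202 (18 reads), SERPINE2-201 (14), the retained-intron transcript SERPINE2-208 (10) and SERPINE2-203 (9). The first pair differs in coding sequence by 3 bases at an exon start, shown in capitals at chromosome 2, 223980398 to 223980400, minus strand, with 24 shared bases on each side. The deposited length of SERPINE2-202 is 2161 bases and that in GENCODE v44 is 2226, so the model counted may have differed. It was the exception among the 53 member transcripts, of which 52 had the same length in both.
SERPINE2-201: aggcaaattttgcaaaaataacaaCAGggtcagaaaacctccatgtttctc
SERPINE2-202: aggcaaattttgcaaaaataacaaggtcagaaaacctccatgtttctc

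SERPINB2 was at the edge of detection in every library. It had 0, 1, 1, 2 and 0 reads, so both pure libraries had none. Their 95% counting intervals reached up to 1.09 CPM in 100:0 and 1.37 CPM in 0:100. No difference between the lines could be seen at this depth and no ratio is given. SERPINB2 (ENSG00000197632.9) lies on chromosome 18, 63871692 to 63903888, plus strand, and shares that span with ENSG00000289724, which had 0 reads.

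**Figure D2:**
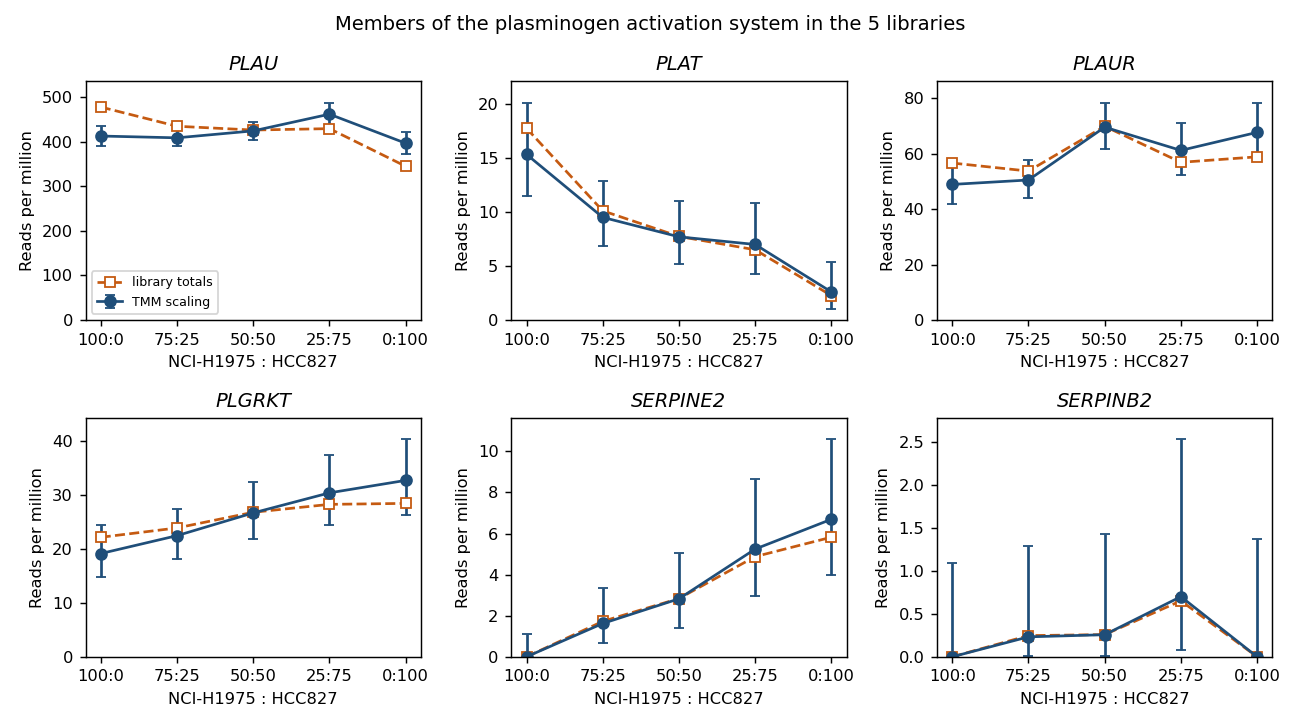
CPM of the 6 genes in the 5 libraries, in mixture order from pure NCI-H1975 to pure HCC827, each panel with its own axis from 0. Filled points are TMM-scaled with 95% Poisson intervals, and open squares are scaled by library totals. PLAT falls from 15.3 to 2.60, PLGRKT and SERPINE2 climb, and PLAU is level under TMM but not under library totals.

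Of the 5 members that passed the read filter, 4 (SERPINE2, PLAUR, PLAT and PLGRKT) had a slope past the threshold of 0.05 on the adjusted p-value, where 45.8% of all 13492 genes did. Levels of 3 of the 5 (SERPINE2, PLAT and PLGRKT) ran in order over the 5 libraries, against 28.5% of all tested genes. The members were picked on this contrast, so nothing is read from these counts. PLAUR lost its call without the 100:0, 75:25, 25:75 or 0:100 library, by library totals, with a filter of 10 reads in all 5 libraries and under DESeq2. PLGRKT lost its call without the 100:0 library and by library totals, where PLAU passed the threshold with a negative slope. Per kilobase of transcript, the level was highest for PLAU in the 100:0 library at 162 CPM per kilobase, followed by PLAUR at 41.5, PLGRKT at 19.6 and PLAT at 5.52. In the 0:100 library the order was PLAU at 155.5, PLAUR at 57.4, PLGRKT at 33.4, SERPINE2 at 2.23 and PLAT at 0.937 CPM per kilobase. Each read counts as 1 whatever its length, and without molecular identifiers PCR copies cannot be told from separate molecules. The order of these genes within each library was the same on the plain CPM scale, and neither scale counts molecules.

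Ratios of reads within a library do not depend on scaling between libraries, and were computed after the levels had been seen. PLAU had 21.5 reads for each PLGRKT read in the 100:0 library (95% counting interval 16.8 to 28.1), then 18.2, 15.9 and 15.2, and 12.1 (9.74 to 15.2) in the 0:100 library. This ratio fell at every step, and the intervals of the pure libraries did not overlap. PLAU had 8.43 reads for each PLAUR read in the 100:0 library (7.18 to 9.97) and 5.86 (5.00 to 6.89) in the 0:100 library, with 8.09, 6.10 and 7.54 between them and not in order. Relative to both receptors, urokinase mRNA was thus lower in HCC827 on any scaling. The ratio of PLAU to PLAT reads went the other way, from 26.9 (20.4 to 36.2) through 43.0, 55.1 and 66.0 to 152 (73.7 to 380). PLAUR and PLGRKT kept a closer ratio, at 2.55 (1.91 to 3.46) and 2.07 (1.60 to 2.70) in the pure libraries.

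**Figure D3:**
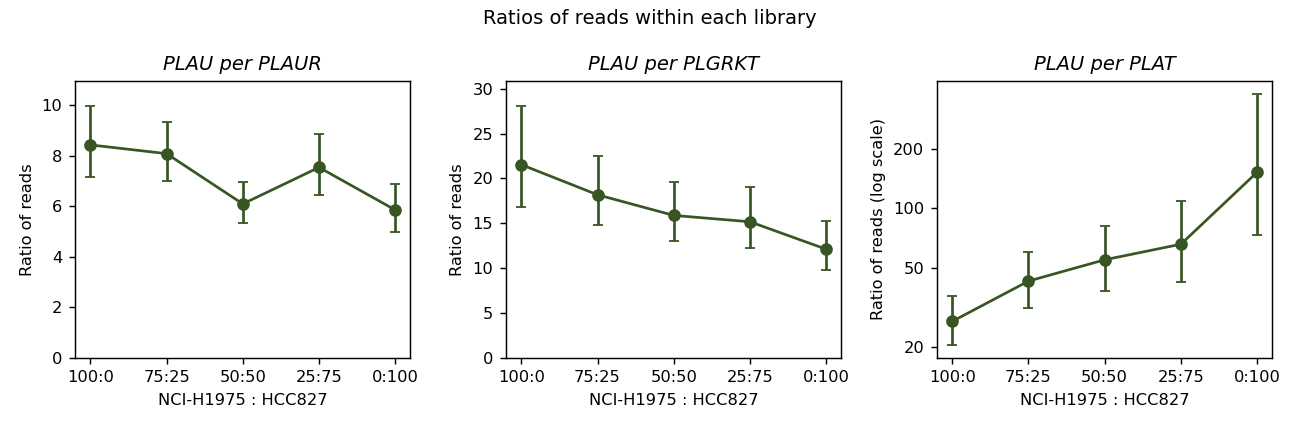
Reads of PLAU for each read of PLAUR, PLGRKT or PLAT within each of the 5 libraries (the PLAT panel has a log axis). Bars are exact 95% counting intervals. PLAU per PLGRKT falls from 21.5 to 12.1 and PLAU per PLAT climbs from 26.9 to 152.

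The mixed libraries have known intermediate compositions, so the reads of each member were set against the count expected from the pure libraries at the mass ratio. The expected count lay inside the 95% Poisson interval of the observed count in 12 of 15 cases, over the 5 members with reads in a pure library. All 3 mixed libraries met it for PLGRKT and SERPINE2. PLAU had 1320 reads at 25:75 where 1163 were expected, a ratio of 1.14 (1.08 to 1.20). PLAUR had 271 reads at 50:50 where 224 were expected, a ratio of 1.21 (1.07 to 1.36). PLAT had 41 reads at 75:25 where 56.3 were expected, a ratio of 0.73 (0.52 to 0.99). The intervals cover the counting error of the mixed library alone.

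HCC827 gave a larger share of reads than of mass, estimated from 10019 genes at 32.7% for 75:25, 55.4% for 50:50 and 78.2% for 25:75. With these shares PLAT at 75:25 came inside its interval, at 0.80 of the expected count, and PLAU at 50:50 moved outside, at 1.05. The departures of PLAUR at 50:50 and PLAU at 25:75 were as large as before, at 1.21 and 1.15.

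**Figure D4:**
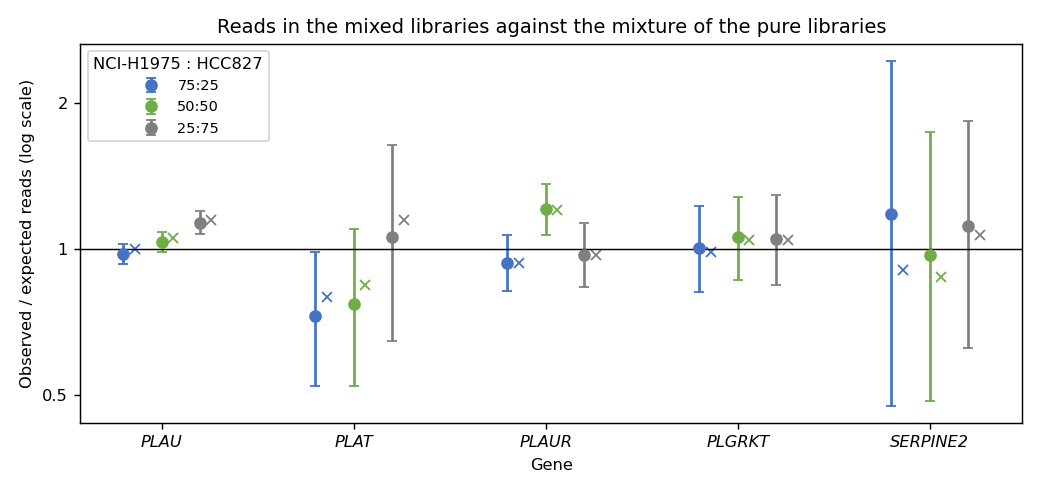
Observed over expected reads (log axis) of 5 members in the 3 mixed libraries. Points use the mass ratio, with 95% Poisson intervals of the observed count. Crosses use the HCC827 share of reads, estimated from 10019 genes with at least 50 reads over the pure libraries together. PLAU at 25:75 (1.14), PLAUR at 50:50 (1.21) and PLAT at 75:25 (0.73) have intervals that leave out 1.

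Genes with the most similar profile over the 5 libraries were found by the distance between levels expressed as shares of each gene's sum, among 8836 genes with at least 200 reads. For PLAU these were LIG3 (distance 0.00428), a DNA ligase, and FASTK (0.00576). For PLAUR they were DIMT1 (0.0113) and RNF166 (0.0117). For PLGRKT the ribosomal protein gene RPS3A (0.0061) was among them. The measure rests on 5 libraries of 2 RNAs, and LIG3 and FASTK had their highest level in the 25:75 library, as PLAU did.

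The other genes of the system were taken from 8 lists with 70 genes, of which 54 passed the read filter. Along the series 14 rose with the HCC827 fraction and 27 fell (edgeR, quasi-likelihood test, threshold of 0.05 after adjustment), and 13 did not pass. The median slope over the lists was -0.41, and over all tested genes it was -0.035, where 23.5% rose and 22.3% fell. By library totals 7 rose and 33 fell. With at least 10 reads required in all 5 libraries, 11 rose and 19 fell. Of the genes that fell, MMP1, MMP14, SERPINB3, SERPINB4, SERPINB7 and SERPINB9 had 0 reads in the 0:100 library. They passed the read filter only through libraries that held NCI-H1975 RNA. THBD, which rose, had 3 reads in the 100:0 library and passed only through libraries that held HCC827 RNA. The counts of rises and falls and the median slope rest partly on that filter. "Rose" and "fell" below refer to TMM scaling and to these RNA preparations.

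Plasminogen itself (PLG), which is made mainly by liver, had 0 reads in all libraries. Of its 4 surface receptors in the list, 2 rose and 2 did not pass. KRT8, a keratin that binds plasminogen on epithelial cells, rose from 764 to 2071 CPM (slope 1.46 ± 0.10, SE, edgeR adjusted p = 2e-06). ENO1, a glycolytic enzyme also found at the cell surface, rose from 1343 to 2679 CPM. ANXA2 and S100A10, which form a complex that binds plasminogen and tissue plasminogen activator, had slopes of -0.17 ± 0.12 and -0.23 ± 0.11 (SE, edgeR adjusted p = 0.265 and 0.106). KRT8 is also 1 of the 8 epithelial markers above, whose summed level was higher in HCC827, and its part in this list was not tested. KRT8, ENO1 and ANXA2 have processed pseudogenes that could share reads.

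Among 6 proteases that can activate pro-urokinase, 2 rose, 2 fell, 1 did not pass and KLKB1 had 1 read. ST14 (matriptase) rose from 74.5 to 267 CPM (slope 1.67 ± 0.16) and HPN (hepsin) from 4.71 to 10.0 CPM (1.06 ± 0.41, edgeR adjusted p = 0.0491). The lysosomal cathepsin CTSL fell from 239 to 32.4 CPM (-2.32 ± 0.27) and CTSB from 349 to 273 CPM (-0.33 ± 0.11). HPN lost its call in each fit that left out a library, under library totals, without the read filter and under DESeq2. CTSB lost its call without the 100:0, 75:25, 50:50 or 0:100 library.

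Of 5 other inhibitors only SERPINA5 (protein C inhibitor) had enough reads, and it fell from 23.9 to 6.69 CPM (slope -1.51 ± 0.30, SE, edgeR adjusted p = 0.00139). SERPINF2, the main inhibitor of plasmin in blood, had 17 reads in all, and A2M had 0. In the thrombin axis, on which SERPINE2 acts, the thrombin gene F2 had 0 reads. The thrombin receptor F2R fell from 41.5 to 9.30 CPM and its relative F2RL1 from 39.2 to 20.1 CPM. THBD (thrombomodulin) rose with 3, 9, 17, 13 and 13 reads, and lost its call without the 100:0, 75:25 or 25:75 library, under library totals and under DESeq2.

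Clearance receptors and partners of the urokinase receptor had 4 rising and 7 falling genes among 14 tested. EGFR, which acts with the urokinase receptor at the membrane, rose from 92.8 to 960 CPM (slope 2.96 ± 0.38, SE, and 1.96 without the 100:0 library). The sorting receptor SORL1 rose from 28.9 to 52.8 CPM, and lost its call without the 100:0 library, without the 0:100 library (slope 0.39 in place of 0.71) and under library totals. Among the integrins ITGA3 rose from 425 to 519 CPM, while ITGB3 fell from 122 reads in the 100:0 library to 1 read in the 0:100 library (slope -3.00 ± 0.57, and -1.97 without the 0:100 library), and ITGA5 fell from 101 to 27.1 CPM (-1.62 ± 0.20). LRP1, which takes up complexes of activators with their inhibitors, fell from 51.3 to 16.7 CPM, and the collagen receptor MRC2 from 73.9 to 23.1 CPM. VTN (vitronectin), the matrix ligand of the urokinase receptor, had at most 3 reads in a library.

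Of 8 tested plasmin substrates and downstream proteases, 6 fell, TGFB1 and PDGFC did not pass, and the median slope was -2.25. MMP1 and MMP14, both among the 6, had 0 reads in the 0:100 library, and LTBP1 and MMP13, also among the 6, had 4 and 3. All of these passed the filter only through libraries that held NCI-H1975 RNA, where they were high. The count of falls and the median of this list rest partly on that filter. MMP14, a membrane metalloproteinase, fell from 1161 reads in pure NCI-H1975 RNA to 0 in pure HCC827 RNA. With the floor of 3 reads this is 307-fold lower, a value set by the floor, and the gene lost its call under DESeq2. Its slope was -3.95, and -2.53 without the 0:100 library. LTBP1, which binds latent TGF-beta in the matrix, fell from 102 to 4 reads (slope -3.40 ± 0.38, SE). The collagenase MMP13 had 87 and 3 reads, and fibronectin (FN1) fell from 535 to 110 CPM. Over the same libraries the summed fibroblast markers went from 186 to 7.07 CPM, with 3 of 4 at 10 reads or more and DCN at 0. The summed mesenchymal markers went from 1137 to 48.7 CPM, with 2 of 3 at 10 reads or more. Their part in these slopes was not tested.

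Among 11 transcription factors that bind the urokinase promoter, 4 rose, 3 fell and 4 did not pass. RELA, a subunit of NF-kappaB, rose from 55.7 to 131 CPM and the AP-1 subunit FOSL1 from 55.4 to 124 CPM, while JUNB fell from 258 to 81.8 CPM and ETS2 from 52.1 to 22.3 CPM. The slope of ETS2 was -1.12, and -0.72 without the 0:100 library. The median slope of the list was 0.37.

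The other clade B serpins, the intracellular family that SERPINB2 belongs to, had 1 gene that rose and 6 that fell among 8 tested, with a median slope of -3.00. SERPINB3, SERPINB4, SERPINB7 and SERPINB9, all among the 6, had 0 reads in the 0:100 library, and SERPINB5, also among the 6, had 6. All of these passed the read filter only through libraries that held NCI-H1975 RNA, where they were high. The count of falls and the median rest largely on that filter. SERPINB1, an inhibitor of neutrophil proteases, rose from 97.2 to 215 CPM (slope 1.14 ± 0.14, SE). SERPINB4 had 54, 49, 19, 6 and 0 reads and SERPINB3 had 40, 21, 6, 10 and 0, and this pair of near-identical neighbours can exchange reads. SERPINB3 lost its call without the 100:0 library, and its slope went from -3.89 to -6.04 without the 25:75 library. Of the 9 listed on chromosome 18, where SERPINB2 lies, SERPINB3, SERPINB4, SERPINB5 and SERPINB7 fell, SERPINB8 did not pass, and SERPINB10, SERPINB11, SERPINB12 and SERPINB13 had at most 4 reads in all.

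**Figure D5:**
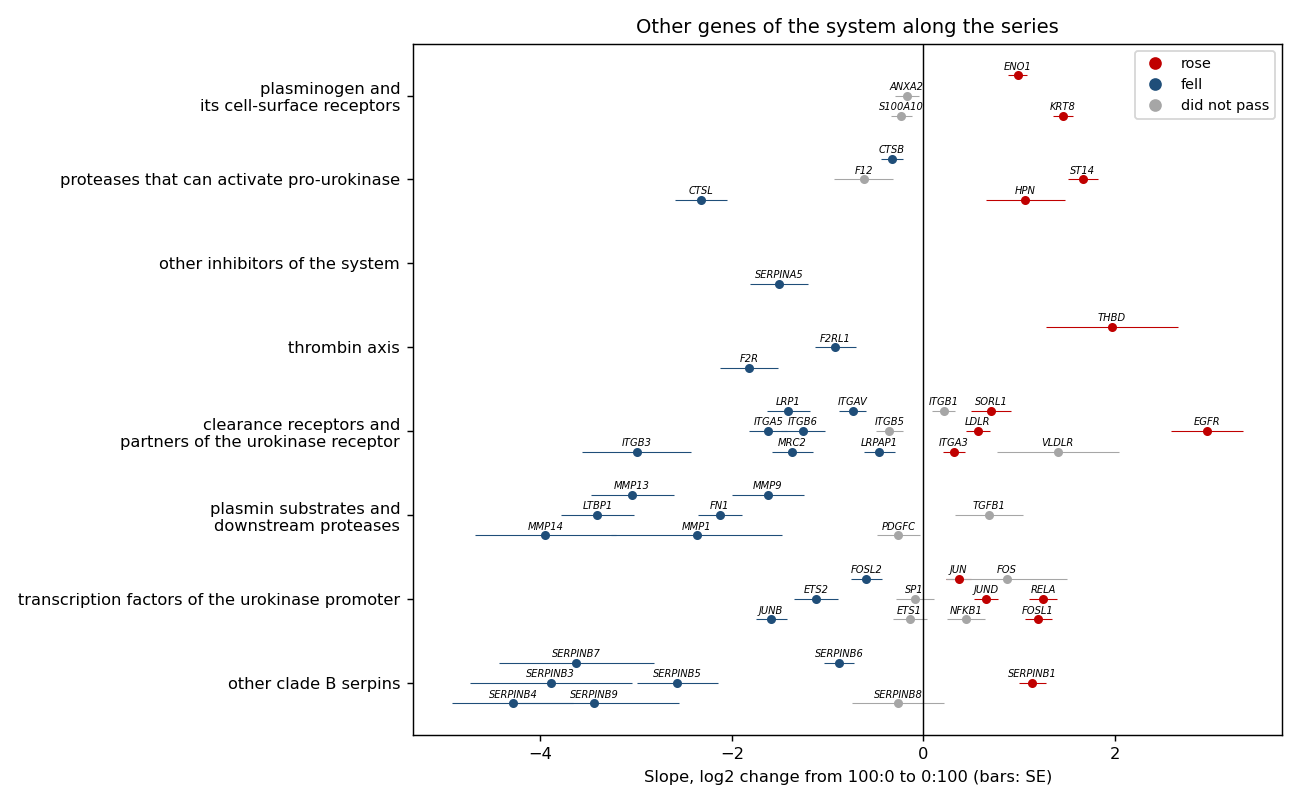
Slope along the series (log2 change from 100:0 to 0:100) of the 54 tested genes of the 8 lists, with bars of 1 SE and colour by call (edgeR, threshold of 0.05 after adjustment). Plasmin substrates and clade B serpins lie mostly to the left of 0, and transcription factors lie on both sides.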

How the data were processed

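The deposited tables hold 1 estimated count of reads per transcript and library, not normalized by the authors, as read from the values. Per the submitters' processing notes, minimap2 2.24, Salmon 1.9.0 and GRCh38 were used, in roles not given, and the annotation release is not given in the sources used here. Counts were rounded (2 values were not whole), copies of 161 repeated identifiers were summed, and transcripts were summed to genes of GENCODE v44, which matched 224076 of 227751 human transcripts and 98.6% of human reads. All genes were fitted together with edgeR 4.0.16 in R 4.3.3: a quasi-likelihood test for a log2-linear trend with the mass fraction of HCC827 across the 5 libraries, TMM factors, genes with 10 or more reads in 2 or more libraries, and Benjamini-Hochberg adjustment with a threshold of 0.05. The SE was taken from the F statistic of that test. A mixture is curved on the log2 scale, so slopes understate ratios of genes nearly absent from 1 line. The trend test was also run on simulated data with known changes, after the fits of the real data.

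Counting intervals are exact or Wilson at 95%. Without molecular identifiers they cover counting error only, as do floors of 3 reads. P-values rest on the scatter of the libraries about the fitted trend, with information shared over genes, and not on replicates. The curve of a mixture on the log2 scale enters that scatter. Sequences shown are from GENCODE v44 (GRCh38). Strand use in counting was not given in the sources used here. Of each list, the text names up to 2 genes in each direction with the largest slope among those called. Those named beyond this (ANXA2, S100A10, LRP1, MRC2, MMP1, MMP13, FN1, ITGA3, TGFB1, PDGFC, SERPINB5, SERPINB7, SERPINB8, SERPINB9, transcripts under 10 reads and genes that were not tested) were chosen after their values were seen. Members and lists were chosen with earlier results of these data known. Alternatives were DESeq2 1.42.0, other scalings, read filters, floors and transcript sets, and leaving out each library. One gene of the likeness comparison is not reported here.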

Additional observations from a re-analysis of the deposited data

How the results depend on the processing

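By library totals the log2 ratio of the pure libraries was -0.47 for PLAU and 0.056 for PLAUR, and the slopes were -0.38 for PLAU, 0.081 for PLAUR and 0.38 for PLGRKT, because the median slope of all genes moved from -0.035 to -0.44. With it, 7 listed genes rose in place of 14, and slopes were 0.58 for ENO1, 0.79 for FOSL1, 0.73 for SERPINB1 and -0.74 for CTSB, moves of over 1.5 times. A floor of 10 reads set the log2 ratio of SERPINE2 to 1.18, since it raises the count of 0 in the 100:0 library. Over fits that left out 1 library, slopes ran from 2.71 (without 100:0) to 4.69 (without 0:100) for SERPINE2 and from -0.045 to 0.21 (without 0:100) for PLAU, and from -2.35 to -1.59 for PLAT, 0.41 to 0.59 for PLAUR and 0.73 to 0.90 for PLGRKT. In those fits 10 to 11 listed genes rose and 22 to 27 fell. All genes called went from 6175 to 4067 without the 0:100 library. Of 23 genes named by rule, 6 lost their call in some alternative and none changed sign. The member ratios under DESeq2 size factors, coding transcripts alone and first copies stayed within their counting intervals. Few reads limit PLAT, SERPINE2 and SERPINB2. No paired analysis was possible because each ratio had 1 library and the labels give the libraries no replicate numbers.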
